A study of Mus musculus with 50 samples.

Results

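The 8 Shisa genes of the mouse (Shisa2 to Shisa9) were taken by symbol from the 24552 genes listed in both deposited count tables, and all 8 were found in both. Shisa proteins cross the membrane and carry a cysteine-rich extracellular domain. The founding member, described in the frog embryo, holds Frizzled and FGF receptors in the endoplasmic reticulum and so dampens Wnt and FGF signalling, and Shisa2 and Shisa3 are its relatives in mammals. Shisa6, Shisa7, Shisa8 and Shisa9 encode partners of AMPA-type glutamate receptors, the receptors that carry fast excitatory input onto medium spiny neurons (MSNs) of the nucleus accumbens (NAc). Shisa6 holds AMPA receptors at the postsynaptic density through PSD-95 family scaffolds, Shisa9 promotes their desensitization, and Shisa7 is also known as a partner of GABA-A receptors. Shisa5, also called Scotin, is a p53 target of the endoplasmic reticulum linked to cell death.

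Libraries came from the NAc of male C57BL/6 mice that carry RiboTag (RT), a ribosomal protein gene whose HA-tagged form is made after Cre recombination. RT; D1-Cre mice tag ribosomes where the D1 receptor driver is active and RT; D2-Cre mice where the D2 receptor driver is active, so the immunoprecipitate (IP) holds ribosome-bound mRNA of Cre-expressing cells and the input holds the RNA of the whole tissue. Mice aged 8 to 12 weeks were undefeated controls (Con) or met an aggressor for 10 min a day over at most 10 days, and defeated mice were sorted by social interaction into resilient (Res) and susceptible (Sus). The daily time with the aggressor is that of the labels, and the study's methods give a shorter one. Each library pooled 2 mice. The D1-IP set held 13 libraries, of which 4 were Con, 4 Res and 5 Sus, and the D2-IP set held 15, with 5 in each stress group. Inputs numbered 9 from each line, 3 for each stress group. A further 4 D1-IP libraries came from undefeated mice of the genotype RT; Sirt1-floxed; D1-Cre, labelled Sirt1-KO. The drivers are bacterial artificial chromosome transgenes, so any other cell in the punch in which a driver is active is tagged as well, and in pooled tissue fewer cells of a type and less RNA per cell cannot be told apart.

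Reads assigned to genes ranged from 21591075 to 31009626 in the 28 IPs, from 18384265 to 28179940 in the 18 inputs, and from 22174187 to 31785984 in the Sirt1-KO libraries. Drd1 lay at 289.6 to 405 CPM (reads of a gene scaled to a fixed library total) in D1-IPs against 110.00 to 172 in D2-IPs. Drd2 lay at 79.97 to 125 CPM in D1-IPs against 299 to 389.8 in D2-IPs, so each receptor was higher in the IPs of its own line. Against whole tissue, Drd2 lay at 60.1 to 102 CPM in D1-inputs, so D1-IPs were not depleted of it. Drd1 lay at 148 to 200 CPM in D2-inputs, a range that overlapped the D2-IPs. Sirt1 lay at 10.2 to 16.2 CPM in the libraries labelled Sirt1-KO and at 13.1 to 16.6 CPM in their D1-IP Con controls, and the ranges overlapped. That count covers the whole gene, may include exons outside the floxed part, and does not check the label. Of the libraries, 4 stood apart in Shisa3 and in transcription factors of the olfactory bulb (D2-IP Con 2, D2-input Con 1, D1-input Con 3 and D1-input Res 3). Results that rest on them are also given without them, an alternative chosen after seeing the data.

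Promoters of 6 members were found in RefSeq (GRCm38.p6, 250 bases before to 50 after each start), with no entry for Shisa6 and Shisa9. Shisa4 and Shisa5 are shown because these members were higher in D1-IPs than in D2-IPs. Capitals mark the GC box, GGGCGG or its reverse complement CCGCCC, which is the motif bound by SP1.
Shisa4, chr1:135375014-135375313, minus strand: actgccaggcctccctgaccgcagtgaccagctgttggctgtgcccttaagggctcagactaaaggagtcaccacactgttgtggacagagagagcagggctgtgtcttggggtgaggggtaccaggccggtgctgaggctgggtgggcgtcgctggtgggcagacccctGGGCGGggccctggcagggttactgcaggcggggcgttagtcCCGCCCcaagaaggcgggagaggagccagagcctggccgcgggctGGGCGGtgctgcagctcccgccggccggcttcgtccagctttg
Shisa5, the most upstream of 5 starts, chr9:109038317-109038616, plus strand: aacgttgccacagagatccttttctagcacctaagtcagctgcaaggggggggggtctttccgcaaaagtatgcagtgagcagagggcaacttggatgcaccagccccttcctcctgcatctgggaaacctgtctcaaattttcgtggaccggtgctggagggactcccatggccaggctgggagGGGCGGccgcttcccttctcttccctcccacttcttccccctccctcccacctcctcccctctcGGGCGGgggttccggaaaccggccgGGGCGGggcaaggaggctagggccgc
Each of the 2 windows holds 3 GC boxes, and 35.7% of 32851 promoters of this length hold at least 1 on either strand. GC content was 68.3% for Shisa4 and 63.3% for Shisa5, against a median of 52.7% over all promoters. Neither window holds a cAMP response element (TGACGTCA), an AP-1 site (TGANTCA), an EGR site (GCGNGGGCG), an E-box of the CACGTG type or a TATA box (TATAAA). Another Shisa5 start, whose window is chr9:109054616-109054915, holds a cAMP response element at position -7 from the start, and 1.79% of promoters hold one. These are matches of letters on both strands. The members lie on 8 different chromosomes, from the compact Shisa4 (chromosome 1, 135371057 to 135375237, 2418 bp of exon) to Shisa6 (chromosome 11, 66211725 to 66525964, 7449 bp of exon) in mm10. Shisa3 (chromosome 5, 67607882 to 67623552) shares 138 bp of exon with Atp8a1 on the opposite strand, and the library kit is stranded.

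To rank the family, levels were expressed as CPM per kilobase of exon, the scale on which genes can be compared. Shisa7 and Shisa9 had the highest means in every kind of library. In D1-IPs, Shisa7 lay at 38.2 ± 2.84 CPM per kilobase (SD, n = 13), above 93.6% of the 18655 genes with a count, and Shisa9 at 30.9 ± 2.03. Their ranges overlapped, yet Shisa7 was above Shisa9 in 13 of 13 D1-IPs and 15 of 15 D2-IPs. Shisa4 (9.22 ± 2.43) and Shisa5 (8.83 ± 1.123) followed in D1-IPs and did not differ beyond their spread, with Shisa4 the higher in 8 of 13 libraries. Shisa6 lay at 2.04 ± 0.459, Shisa8 at 1.32 ± 0.242 and Shisa2 at 0.883 ± 0.193 CPM per kilobase, and the ranges of these neighbours overlapped in turn. Shisa3 was the lowest, at 0.0213 ± 0.0237 CPM per kilobase, below all D1-IP values of Shisa2.

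The order changed in D2-IPs. Shisa5 (6.38 ± 0.409 CPM per kilobase, SD, n = 15) stood above Shisa4 (4.72 ± 0.892) in 14 of 15 libraries, and Shisa6 (1.33 ± 0.142) lay beside Shisa8 (1.35 ± 0.343), from which it did not differ beyond the spread. In whole tissue the ranges of the 5 leading genes did not overlap, with D1-input means of 45.2 for Shisa7, 25.1 for Shisa9, 15.6 for Shisa4, 8.21 for Shisa5 and 2.04 CPM per kilobase for Shisa6. Shisa8 and Shisa2 did not differ beyond their spread in either kind of input. The inputs of both lines gave the same order of all 8 means.

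**Figure D1:**
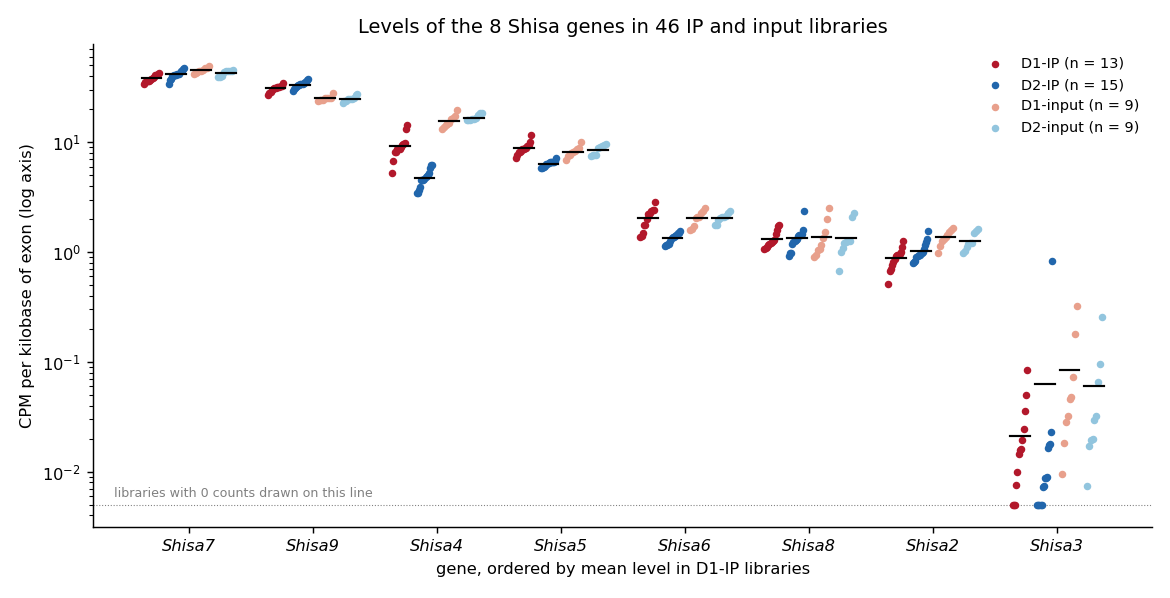
Level of each Shisa gene in CPM per kilobase of exon (log axis) in every IP and input library. Points are libraries, bars are means and libraries without a read lie on the dotted line. Shisa7 and Shisa9 lead in all 4 kinds of library, and the mean of Shisa4 is 16.8 in D2-inputs and 4.72 in D2-IPs.

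To compare the MSN subtypes, D1-IPs were set against D2-IPs in an edgeR fit of the 28 IPs, with the stress groups kept apart, over 14224 genes. Of the 7 members tested (Shisa3 had too few reads), 5 passed an adjusted p under 0.05, when 40.8% of all genes passed. Shisa4, Shisa5 and Shisa6 were higher in D1-IPs, while Shisa7 and Shisa9 were slightly lower.

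Shisa4 had CPM of 12.6, 21.1 and 35.00 (lowest, median and highest) in D1-IPs and 8.26, 11.3 and 15.01 in D2-IPs. All 13 D1-IPs were above the D2-IP median, although the ranges overlapped. The log2 fold change was 0.94 ± 0.11 (SE; edgeR adjusted p = 1.2e-07), a 1.92-fold difference. It was the only 1 of 7 members past 1.5-fold as well, when 7.66% of all genes were.

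Shisa5, the p53 target, had CPM of 23.7, 28.6 and 38.6 in D1-IPs and 19.1, 21.3 and 23.9 in D2-IPs. Again all 13 D1-IPs exceeded the D2-IP median, with ranges that met at the edge. The difference was 0.45 ± 0.05 on the log2 scale (edgeR adjusted p = 4.08e-08).

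Shisa6, which anchors AMPA receptors, had CPM of 10.3, 16.5 and 21.4 in D1-IPs and 8.38, 10.2 and 11.6 in D2-IPs. Every D1-IP lay above the D2-IP median, and the lowest D1-IPs, of the Con and Res groups, fell within the D2-IP range. D1-IPs exceeded D2-IPs by 0.56 ± 0.08 on the log2 scale (edgeR adjusted p = 6.63e-07).

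The abundant receptor partners differed little. Shisa7 had CPM of 224, 252 and 285 in D1-IPs and 225, 274 and 313 in D2-IPs, which differed by -0.13 ± 0.04 on the log2 scale (edgeR adjusted p = 0.0184). Shisa9 had CPM of 142, 163 and 179.9 in D1-IPs and 155, 176 and 198 in D2-IPs, which differed by -0.13 ± 0.04 (edgeR adjusted p = 0.00662). The ranges of both overlapped, with 2 of 13 D1-IPs above the D2-IP median for Shisa7 and 1 of 13 for Shisa9. Shisa2 (log2 fold change -0.23 ± 0.11, edgeR adjusted p = 0.0875) and Shisa8 (-0.03 ± 0.11, adjusted p = 0.83) did not pass.

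Markers of cortical excitatory neurons moved with the same contrast. All 4 (Slc17a7, Tbr1, Neurod6 and Emx1) were higher in D1-IPs, with a median log2 fold change of 2.19, and none was at 0 in either kind of IP as a whole. Their summed level was 368 to 1321 CPM in D1-IPs and 20.05 to 285 CPM in D2-IPs, with no overlap. The highest sums were in D1-IP Sus 3 (1321) and D1-IP Con 2 (1023), which also held the highest Shisa4 (35.00 and 32.04 CPM), and the lowest D1-IP sum was in Con 1 (368), with the lowest D1-IP Shisa4 (12.6 CPM).

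In a fit chosen after seeing the data, with that sum as a covariate, the Shisa4 difference was 0.39 ± 0.16 (edgeR adjusted p = 0.0928), that of Shisa5 0.32 ± 0.09 (adjusted p = 0.00847) and that of Shisa6 0.43 ± 0.13 (adjusted p = 0.0216). As the sum did not overlap between D1-IPs and D2-IPs, the fit cannot tell subtype and cortical sum apart. Shisa7 (adjusted p = 0.361) and Shisa9 (adjusted p = 0.0616) did not pass in that fit, which called 2693 of 14224 genes, against 5805 without the covariate. Without D1-IP Con 2 and Sus 3, likewise chosen after seeing the data, Shisa4 stood at 0.81 ± 0.10, Shisa5 at 0.40 ± 0.05 and Shisa6 at 0.51 ± 0.07, all past the threshold. Of 7 members 4 passed there, when 5016 of 14340 genes did, against 5 of 7 in the fit of all 28 IPs.

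Other cell types moved as well. Of the astrocyte markers 5 of 5 were higher in D1-IPs (summed CPM 39.9 to 78.8 against 31.00 to 55.5), and 3 of 5 oligodendrocyte markers were (475 to 747 against 388 to 629). Cholinergic interneuron markers were lower in 4 of 5 cases (10.99 to 36.7 against 70.00 to 135), microglia markers in 4 of 5 (8.91 to 15.3 against 11.4 to 19.1) and endothelial markers in 2 of 4 (5.03 to 8.48 against 4.501 to 12.5). Of 6 GABAergic interneuron markers, 2 were higher and 2 lower. The summed markers shared by both MSN subtypes lay at 4003 to 6114 CPM in D1-IPs (median 4736) and 5551 to 7447 in D2-IPs (median 6738). The part of all these cell types in the Shisa differences was not tested.

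Within each stress group, 3 of 7 members passed in Con (14% of all genes), 2 of 7 in Res (17.5%) and 3 of 7 in Sus (17.6%). Shisa4 passed in each, with log2 fold changes of 1.06 ± 0.20 in Con, 0.79 ± 0.20 in Res and 0.97 ± 0.19 in Sus. Shisa5 passed in each too, at 0.38 ± 0.09, 0.38 ± 0.09 and 0.58 ± 0.08. Shisa6 passed in Con (0.57 ± 0.13) and Sus (0.87 ± 0.13) but not in Res (0.26 ± 0.13, edgeR adjusted p = 0.191). With the cortical sum as a covariate 0 of 7 members passed in Con, 0 of 7 in Res and 2 of 7 (Shisa5 and Shisa6) in Sus. Of all 14224 genes 1290, 1520 and 1411 passed in that fit, against 1990, 2487 and 2497 without the covariate. Shisa4 then stood at 0.55 ± 0.20 in Con (edgeR adjusted p = 0.0912), 0.26 ± 0.21 in Res (adjusted p = 0.474) and 0.37 ± 0.21 in Sus (adjusted p = 0.319).

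**Figure D2:**
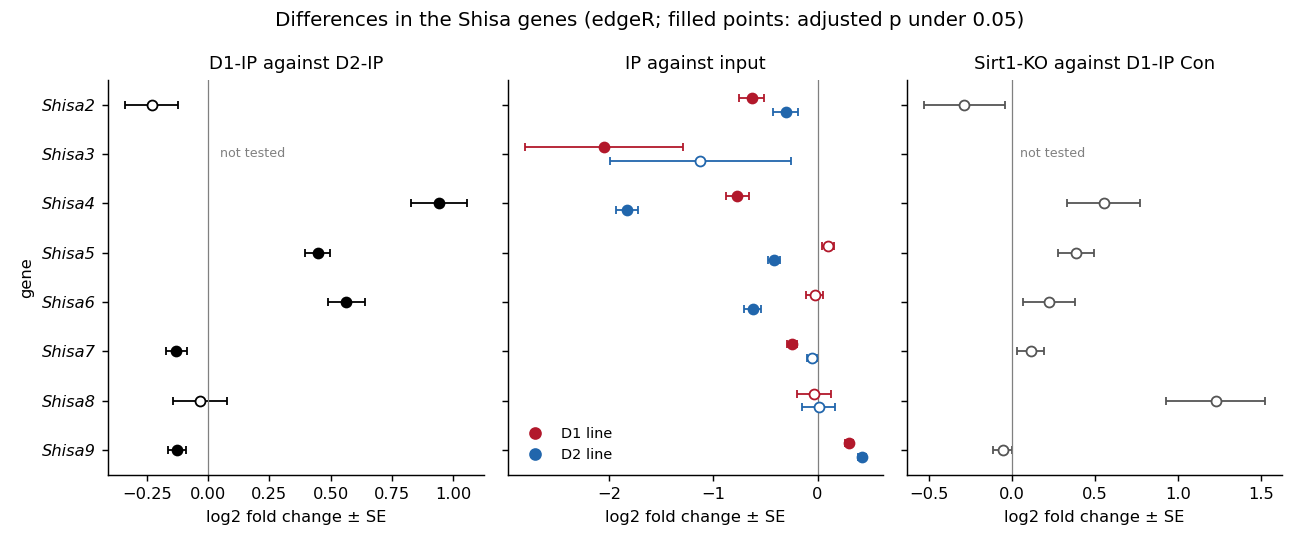
Log2 fold change of each Shisa gene on the x axis (bars are standard errors of the edgeR fit) for D1-IP against D2-IP, IP against input in each line, and Sirt1-KO against D1-IP Con; filled points passed an adjusted p under 0.05. Shisa4, Shisa5 and Shisa6 lie right of 0 at 0.94, 0.45 and 0.56 for D1 against D2, Shisa9 is above input in both lines (0.31 and 0.43), and no point is filled for Sirt1-KO.

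To see which members are carried by the tagged ribosomes more than by the tissue as a whole, IPs were set against inputs of the same line over 15404 genes. In the D1 line 5 of 8 members passed, when 81.9% of all genes did, and in the D2 line 5 of 8, when 82.7% did. As means over stress groups, Shisa9 was the only member higher in the IPs of both lines, and Shisa4 and Shisa2 were lower in both. Glial, microglial and endothelial markers were lower in both kinds of IP without exception, and the 4 cortical markers were higher in 2 cases in D1-IPs and lower in all 4 in D2-IPs, and their part was not tested. The summed D2-MSN markers (Drd2, Adora2a, Gpr6 and Penk) lay at 2061 to 3471 CPM in D1-IPs, above D1-inputs (776 to 1324). What D2-MSN RNA in D1-IPs adds to the D1 ratios was not tested.

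Shisa9 had CPM of 123, 132 and 147 (lowest, median and highest) in D1-inputs, below the D1-IP values except at the edge, and 119, 130.3 and 143 in D2-inputs, below all D2-IPs. The log2 fold change of IP over input was 0.31 ± 0.04 in the D1 line (edgeR adjusted p = 4.33e-09) and 0.43 ± 0.04 in the D2 line (adjusted p = 3.54e-13). Scaling by library totals alone lowered the median over all genes from -0.04 to -0.23 in the D1 line and from -0.08 to -0.21 in the D2 line, and Shisa9 then stood at 0.11 and 0.30.

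Shisa4 was the member with the lowest IP to input ratio in the D2 line. It had CPM of 31.97, 35.9 and 47.1 in D1-inputs and 38.1, 39.3 and 44.4 in D2-inputs, so every D2-IP lay below every D2-input. On the log2 scale the IPs stood at -0.77 ± 0.11 in the D1 line (edgeR adjusted p = 2.46e-08) and -1.83 ± 0.11 in the D2 line (adjusted p = 2.85e-19). The D2-IP level was thus 3.56-fold below input and the D1-IP level 1.71-fold below.

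Shisa2, a relative of the frog inhibitor, had CPM of 1.89, 3.41 and 4.59 in D1-IPs and 3.61, 5.03 and 6.13 in D1-inputs, with the IPs at -0.63 ± 0.12 against inputs on the log2 scale (edgeR adjusted p = 8.32e-06). No D1-IP reached the D1-input median, though the ranges overlapped. In the D2 line it was -0.31 ± 0.12 (adjusted p = 0.0151), and -0.26 ± 0.13 without the libraries that stood apart (adjusted p = 0.0565). By stress group Shisa2 in the D2 line stood at -0.47 ± 0.20 in Con, -0.45 ± 0.20 in Res and -0.0004 ± 0.20 in Sus. The D2 call over all groups was lost in 3 of 24 single omissions.

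Shisa6 and Shisa5 split by line. Shisa6 had CPM of 11.9, 15.6 and 18.6 in D1-inputs, which covered the D1-IPs for the most part, and a log2 fold change of -0.03 ± 0.08 in that line (edgeR adjusted p = 0.763). By stress group Shisa6 in the D1 line stood at 0.14 ± 0.15 in Con, -0.41 ± 0.15 in Res and 0.18 ± 0.14 in Sus. Only Res passed (edgeR adjusted p = 0.0146), when 10493 of 15404 genes did, and that call was lost in 4 of 7 single omissions. For Shisa6 in the D2 line, all D2-IPs lay below all D2-inputs (13.1, 15.5 and 17.8 CPM), at -0.62 ± 0.08 (adjusted p = 8.1e-09). Shisa5 stood at 0.10 ± 0.06 in the D1 line (adjusted p = 0.127), and at 0.15 ± 0.06 without the libraries that stood apart (adjusted p = 0.028). In the D2 line it was -0.42 ± 0.06 (adjusted p = 2.14e-08), with D2-inputs at 24.7, 29.4 and 31.8 CPM, above all D2-IPs.

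Shisa7 was lower in D1-IPs than in D1-inputs (279.7, 298 and 328 CPM), at -0.25 ± 0.05 on the log2 scale (edgeR adjusted p = 9.61e-06) and did not pass in the D2 line (-0.05 ± 0.05, adjusted p = 0.284). Shisa8 did not pass in either line, at -0.03 ± 0.16 and 0.01 ± 0.16. Shisa3, at 0 to 9 reads in D1-IPs and 1 to 34 in D1-inputs, gave -2.05 ± 0.76 in the D1 line (adjusted p = 0.0131) and did not pass in the D2 line (adjusted p = 0.225). Without the 4 libraries that stood apart Shisa3 had too few reads to be tested, and it no longer passed without D1-input Con 3, Res 3 or Sus 3.

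The enrichment itself was then compared between lines, as the IP to input ratio of D1 over that of D2, and 4 of 8 members passed, when 25.5% of all genes did. Shisa4 (1.06 ± 0.15 on the log2 scale, edgeR adjusted p = 1.49e-06), Shisa5 (0.51 ± 0.08, adjusted p = 9.88e-06) and Shisa6 (0.59 ± 0.12, adjusted p = 0.000214) had the higher ratio in D1, and Shisa7 the lower (-0.19 ± 0.07, adjusted p = 0.0261). The Shisa7 call was lost when D2-input Con 1, which stood apart, was left out. Without all 4 libraries that stood apart 3 of 7 members passed, when 3589 of 15525 genes did. With the cortical sum as a covariate Shisa4, Shisa5, Shisa6 and Shisa7 were at 0.65 ± 0.16 (adjusted p = 0.00275), 0.32 ± 0.09 (adjusted p = 0.0116), 0.38 ± 0.14 (adjusted p = 0.0473) and -0.21 ± 0.08 (adjusted p = 0.0713). Between the inputs of the lines, which are both whole tissue, 0 of 8 members passed an adjusted p under 0.05 in edgeR and 0 of 8 in DESeq2, when 0.0199% of all genes did in edgeR, and 0 of 8 had an unadjusted p under 0.05.

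To ask whether chronic social defeat changed the family in either subtype, stress groups were compared within D1-IPs and within D2-IPs, with calls at an unadjusted p under 0.05, the threshold the study used. No member passed an adjusted p under 0.05 in any stress comparison, when at most 0.00703% of all genes did. Control libraries are shared between the Sus and Res comparisons. In D1-IPs, 1 of 7 members passed for Sus against Con (5.34% of all genes), 0 of 7 for Res against Con in edgeR and in DESeq2 (2.11%), and 1 of 7 for Sus against Res (4.23%). Each call was Shisa6, the gene that the study singled out from these same libraries, so it is not independent evidence. The study also reported in situ hybridization in a separate defeat cohort, with more Shisa6 in D1-MSNs of Sus mice.

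Shisa6 had CPM of 13.1, 18.01, 17.00 and 10.4 in D1-IP Con, 11.1, 14.8, 13.2 and 10.3 in D1-IP Res, and 16.6, 16.5, 21.4, 17.5 and 18.1 in D1-IP Sus. All 5 Sus libraries were above all 4 Res libraries, while Con overlapped both. The log2 fold change of Sus over Res was 0.55 ± 0.13 (edgeR adjusted p = 0.999), and an exact permutation test, two-sided, gave p = 0.00794, the smallest it allows. Sus over Con was 0.30 ± 0.13 (edgeR adjusted p = 0.846), past the unadjusted threshold, and Res over Con was -0.25 ± 0.14, which did not pass it.

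The Sus over Con call was lost when only those groups were fitted, and when D1-IP Con 1, Con 4 or Sus 3 was left out, with 0.17 to 0.42 over all single omissions. An exact permutation test, two-sided, of Sus over Con gave p = 0.119. The Res over Con difference passed when D1-IP Con 4 or Res 2 was left out (-0.38 to -0.13 over all single omissions). The cortical sum was 368 to 1023 CPM in D1-IP Con, 449 to 833 in Res and 608 to 1321 in Sus, with 0 of 4 markers passing at an unadjusted p in edgeR in these comparisons. With it as a covariate Shisa6 stood at 0.53 ± 0.13 for Sus over Res and at 0.28 ± 0.13 for Sus over Con, both past the unadjusted threshold. Without D1-IP Con 2 and Sus 3 it stood at 0.48 ± 0.13 and 0.35 ± 0.14, both past that threshold.

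Of the D2-MSN markers, 4 of 4 were lower in D1-IP Sus than in Con (median log2 fold change -0.23, summed CPM 2061 to 2607 against 2370.2 to 3471) and 2 of 4 lower than in Res (2347 to 2794), and their part was not tested. The other 6 members tested had D1-IP log2 fold changes of -0.23 to 0.36 over the 3 comparisons.

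In D2-IPs, 0 of 7 members passed in edgeR or in DESeq2 for Sus against Con, for Res against Con and for Sus against Res, when 3.68%, 3.02% and 1.66% of all genes passed in edgeR. Shisa6 had CPM of 8.77, 8.38, 11.1, 10.2 and 10.4 in D2-IP Con, 10.00, 10.6, 11.6, 8.64 and 10.3 in Res, and 10.8, 8.84, 8.72, 11.2 and 9.39 in Sus. The groups overlapped throughout. Sus over Res was -0.06 ± 0.13 in D2-IPs, and the difference of this contrast between D1 and D2 was 0.60 ± 0.18 for Shisa6 (edgeR adjusted p = 1.0), past the unadjusted threshold.

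Shisa2 gave a difference of the other sign, -0.55 ± 0.26 (edgeR adjusted p = 1.0), so 2 of 7 members passed this test, when 2.03% of all genes did. It had CPM of 3.15, 4.59, 4.07 and 2.98 in D1-IP Res and 2.82, 2.56, 3.41, 3.47 and 3.56 in D1-IP Sus, and 3.35, 3.06, 3.32, 3.67 and 3.61 in D2-IP Res and 3.46, 4.501, 2.91, 4.83 and 5.704 in D2-IP Sus. The groups overlapped within each subtype. The Shisa2 call was lost in 10 of 19 single omissions (D1-IP Res 2 or 3, D1-IP Sus 1 or 2, D2-IP Res 1, 2 or 3, and D2-IP Sus 2, 4 or 5), with -0.67 to -0.43 over all of them, while that of Shisa6 was kept in 19 of 19. For Sus against Con and Res against Con 0 of 7 members passed the test of the difference in edgeR or in DESeq2, when 1.82% and 2.36% of all genes did in edgeR.

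**Figure D3:**
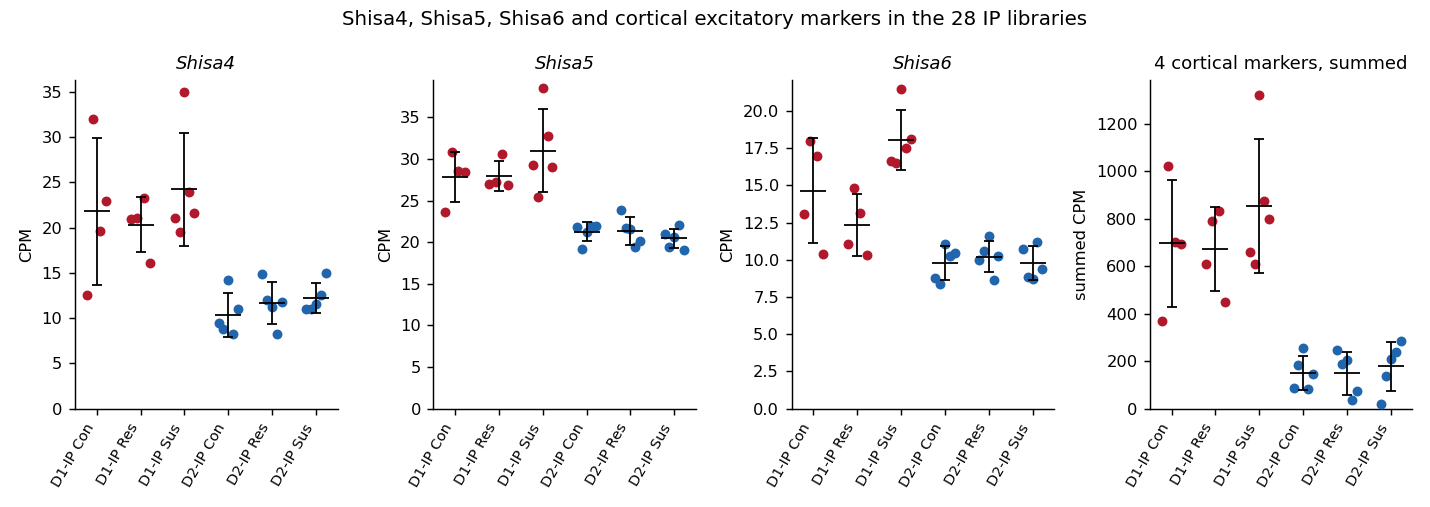
CPM of Shisa4, Shisa5 and Shisa6 and summed CPM of 4 cortical excitatory markers in each of the 28 IP libraries by line and stress group; points are libraries and bars are mean ± SD. Shisa6 lies at 16.5 to 21.4 in D1-IP Sus and 10.3 to 14.8 in D1-IP Res, and the cortical sum is 368 to 1321 in D1-IPs and 20.05 to 285 in D2-IPs.

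In whole tissue, inputs of both lines were compared by stress group with line as a term. For Sus against Con 1 of 8 members passed an unadjusted p under 0.05 (4.51% of all genes), for Res against Con 1 of 8 (3.25%), and for Sus against Res 0 of 8 in edgeR and in DESeq2 (5.47%). Both calls were Shisa9, the partner that affects desensitization. It had CPM of 147, 133 and 134 in D1-input Con, 127, 127 and 132 in D1-input Res and 126, 132 and 123 in D1-input Sus. The D2-inputs held 130.4, 143 and 142 in Con, 123, 134 and 125 in Res and 119, 129 and 130.3 in Sus. None of the 6 Sus or 6 Res inputs exceeded the control median, though the ranges overlapped.

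On the log2 scale the difference was -0.12 ± 0.04 for Sus (edgeR adjusted p = 0.979) and -0.11 ± 0.04 for Res (adjusted p = 1.0), against the same controls. Without the inputs that stood apart they were -0.15 ± 0.04 and -0.15 ± 0.04, both past the unadjusted threshold. In the IPs, Shisa9 stood at -0.10 ± 0.07 in D1 and -0.01 ± 0.06 in D2 for Sus over Con, and neither passed.

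To see whether Shisa levels differed with the Sirt1 genotype, the 4 libraries labelled Sirt1-KO were compared with the 4 D1-IP Con libraries, all of undefeated mice. Of 7 members 0 passed an adjusted p under 0.05 in edgeR, when 1.66% of all genes did. In DESeq2 2 of 7 (Shisa5 and Shisa8) passed, a count given without the share of all genes in that test. In edgeR 3 (Shisa4, Shisa5 and Shisa8) had an unadjusted p under 0.05, when 17.3% of all genes did. The Sirt1-KO libraries were deposited in a table of their own with these controls, so the genotype and the set of libraries cannot be told apart.

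Shisa8 had CPM of 4.84, 9.16, 11.97 and 4.32 in Sirt1-KO (replicates 1, 3, 4 and 5) and 2.83, 4.14, 3.13 and 2.96 in D1-IP Con, on the scale of these 8 libraries. All 4 Sirt1-KO libraries were above all 4 controls, with replicates 3 and 4 far above the rest. Eomes, a transcription factor of the olfactory bulb, had 0, 4, 15 and 0 reads in Sirt1-KO 1, 3, 4 and 5 and at most 1 in each control, and Tbx21, another such factor, had 1, 1, 6 and 0 reads against at most 1. Their part in the result was not tested. The log2 fold change was 1.23 ± 0.30 (edgeR adjusted p = 0.0616), and an exact permutation test, two-sided, gave p = 0.0286, the smallest it allows. Without Sirt1-KO 3 and 4, left out after seeing the data, it was 0.49 ± 0.21 (edgeR adjusted p = 0.535). That fit set only Sirt1-KO 1 and 5 against the 4 controls. It called 16 of 13872 genes, against 226 of 13626 with all 8 libraries.

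Shisa5 had CPM of 33.3, 37.1, 39.2 and 28.3 in Sirt1-KO and 22.4, 29.2, 27.1 and 27.1 in D1-IP Con. All 4 Sirt1-KO libraries exceeded the control median and 1 fell within the control range. Sirt1-KO exceeded Con by 0.39 ± 0.11 on the log2 scale (edgeR adjusted p = 0.092).

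Shisa4 had CPM of 29.4, 32.5, 34.7 and 24.3 in Sirt1-KO and 11.9, 30.4, 18.6 and 21.9 in D1-IP Con. The ranges overlapped through D1-IP Con 2. The difference was 0.55 ± 0.22 on the log2 scale (edgeR adjusted p = 0.222).

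The cortical sum was 789 to 1497 CPM in the Sirt1-KO libraries and 348 to 969 in the controls, and within Sirt1-KO the replicates 4, 3, 1 and 5 stood in that order in the sum and in Shisa4, Shisa5 and Shisa8 alike. Of its 4 markers 0 passed an adjusted p under 0.05 in edgeR (median log2 fold change 0.85). With the sum as a covariate Shisa8 was 0.48 ± 0.34, Shisa5 0.07 ± 0.09 and Shisa4 -0.12 ± 0.12, the last with its sign turned, and none of them passed an unadjusted p under 0.05. That fit called 34 of 13626 genes at an adjusted p under 0.05, against 226 without the covariate. As the sum was mostly higher in Sirt1-KO, the fit cannot fully tell the label and the cortical sum apart. Of the GABAergic interneuron markers 2 of 6 were higher (summed CPM 151 to 177 against 110.2 to 143), while 1 of 4 D1-MSN markers (896 to 1122 against 1192 to 1469) and 1 of 4 cholinergic interneuron markers tested (7.05 to 14.3 against 14.8 to 20.02) were lower, and their part was not tested. The summed markers shared by both MSN subtypes lay at 3322 to 4811 CPM against 4477 to 5783, and their part was not tested either. Shisa6 (0.22 ± 0.16), Shisa7 (0.11 ± 0.08), Shisa9 (-0.05 ± 0.06) and Shisa2 (-0.29 ± 0.24) did not pass at an unadjusted p either.

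**Figure D4:**
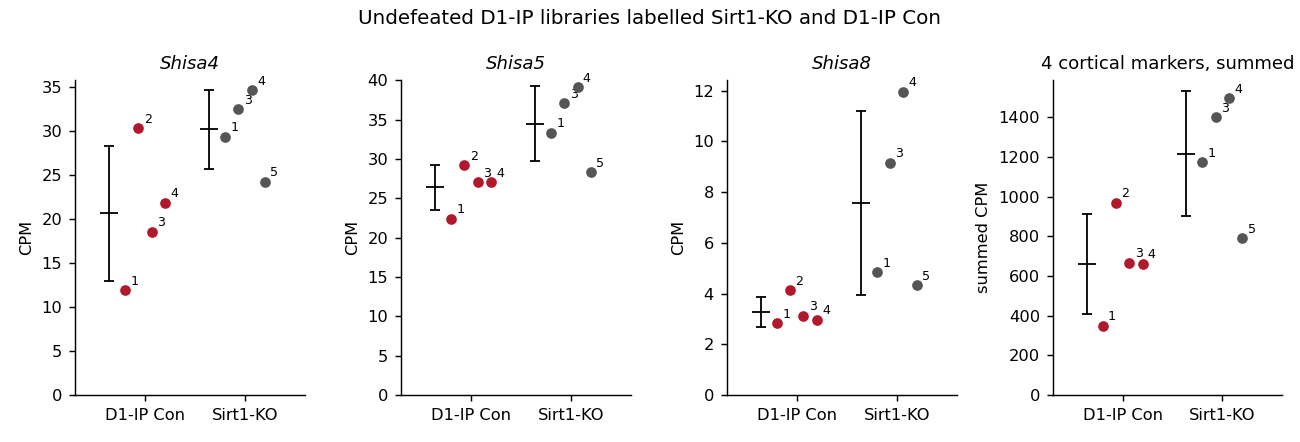
CPM of Shisa4, Shisa5 and Shisa8 and summed CPM of 4 cortical markers in the 4 D1-IP Con and 4 Sirt1-KO libraries; points are libraries with their replicate number, bars are mean ± SD. Shisa8 lies at 4.32 to 11.97 in Sirt1-KO against 2.83 to 4.14 in Con, and the cortical sum at 789 to 1497 against 348 to 969.

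Shisa3 was the rarest member. D2-IP Con 2 had 77 reads (3.91 CPM), while the other 27 IPs had 0 to 9 reads (at most 0.3996 CPM). Eomes and Tbx21, transcription factors of mitral and tufted cells of the olfactory bulb that were chosen after their values were seen, stood at 3.401 and 1.117 CPM in D2-IP Con 2 and at most at 0.315 and 0.0782 CPM in the other IPs. Among inputs, Shisa3 was highest in D1-input Res 3 (1.53 CPM), D2-input Con 1 (1.21) and D1-input Con 3 (0.854), against at most 0.453 in the other 15. Eomes was also highest there, at 1.803, 2.63 and 0.605 CPM against at most 0.453. Shisa8 stood at 6.94, 6.27 and 5.51 CPM in those inputs and at 6.55 CPM in D2-IP Con 2, against 1.86 to 5.75 in the other inputs and 2.53 to 4.94 in the other IPs. The part of tissue other than the NAc in these values was not tested.

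**Figure D5:**
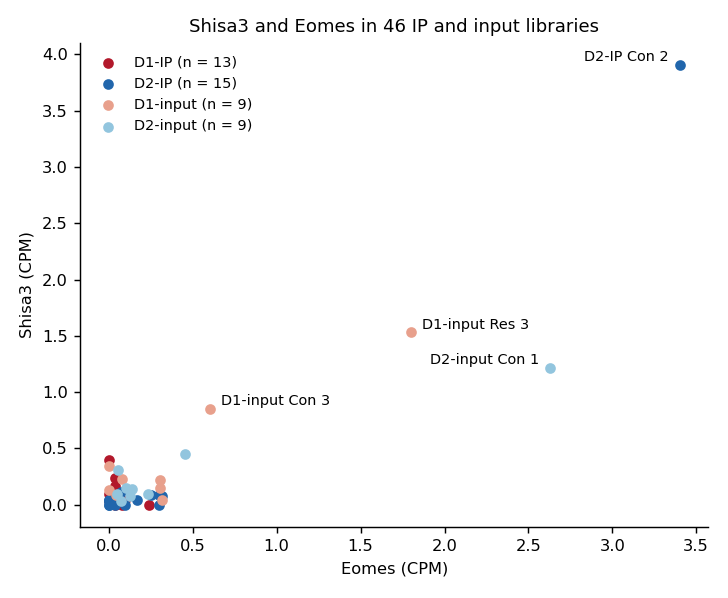
Shisa3 against Eomes, both in CPM, in each of the 46 IP and input libraries; points are libraries coloured by kind and the 4 highest in Shisa3 are named. D2-IP Con 2 lies at 3.91 and 3.401 CPM, 3 inputs follow, and the other libraries have at most 0.453 CPM of Shisa3.

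The partners of the Shisa proteins were counted from lists of AMPA receptor subunits, other AMPA receptor auxiliary and assembly proteins, PSD-95 family scaffolds, and Frizzled and FGF receptors. Of the subunits, 1 of 4 was higher and 2 of 4 were lower in D1-IPs than in D2-IPs, with Gria4 at 0.16 ± 0.04, Gria1 at -0.14 ± 0.03 and Gria2 at -0.12 ± 0.03 on the log2 scale. Of the auxiliary proteins 2 of 15 were higher and 7 of 15 lower, when 19.6% and 21.3% of all genes were. Cnih3, a cornichon, was higher in D1-IPs by 1.05 ± 0.09, while Cacng5 (-0.46 ± 0.05) and Cacng4 (-0.39 ± 0.06), of the TARP family, and Syndig1 (-0.33 ± 0.04) were lower. Of the scaffolds, Dlg2 (-0.17 ± 0.04) and Dlg4 (-0.10 ± 0.03) were lower. Of 12 Frizzled and FGF receptors tested, 3 were higher and 2 lower, among them Fzd1 (0.84 ± 0.11) and Fzd5 (-0.70 ± 0.08). The list medians were -0.01, -0.04, -0.08 and 0.02 in the order above, beside -0.02 for all genes.

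Against inputs the lists differed in direction. Of the scaffolds 4 of 4 were higher in D1-IPs and 4 of 4 in D2-IPs, and of the subunits 3 of 4 and 3 of 4, when 39.2% and 37.8% of all genes were. Of the auxiliary proteins 9 of 15 were higher in D1-IPs and 10 of 15 in D2-IPs, with 3 and 4 lower. Of the Frizzled and FGF receptors tested, 12 of 13 were lower in D1-IPs and 10 of 13 in D2-IPs, when 42.7% and 44.9% of all genes were. The list medians in the D1 and D2 lines were 0.56 and 0.58 for subunits, 0.28 and 0.32 for auxiliary proteins, 0.37 and 0.51 for scaffolds, and -1.24 and -1.67 for Frizzled and FGF receptors, beside -0.04 and -0.08 for all genes. Syndig1 (0.74 ± 0.05 and 1.15 ± 0.05) and Gsg1l (0.70 ± 0.05 and 0.97 ± 0.05) were among the higher, and Cacng7 (-0.80 ± 0.07 and -0.90 ± 0.07) and Fzd2 (-4.09 ± 0.15 and -4.06 ± 0.14) among the lower.

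Under stress few list members passed an unadjusted p under 0.05. In D1-IPs 1 of 15 auxiliary proteins (Gsg1l, -0.16 ± 0.08) was lower and 1 of 12 Frizzled and FGF receptors (Fgfr3, 0.52 ± 0.19) higher in Sus than in Con, when 5.34% of all genes passed. Of the scaffolds 1 of 4 (Dlg4, -0.12 ± 0.05) was lower in Sus than in Res, when 4.23% of all genes passed, and 0 members of these lists passed for Res against Con in edgeR (2.11% of all genes). In D2-IPs 1 of 15 auxiliary proteins (Gsg1l, -0.17 ± 0.07) was lower in Sus than in Con (3.68% of all genes), 1 of 12 Frizzled and FGF receptors (Fzd9, -0.66 ± 0.31) was lower in Sus than in Res (1.66%), and 0 passed for Res against Con (3.02%). In the Sirt1-KO comparison Gria4 was the only list member past an adjusted p under 0.05, at -0.30 ± 0.06 (edgeR adjusted p = 0.0353).

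The genes whose log2 CPM followed each member most closely over the 28 IPs were named with Pearson's r as a description, since all share the same libraries and the split between D1 and D2. Shisa4 was followed by Coro2a (0.97), Sept9 (0.96) and Rorb (0.95), Shisa5 by Sncb (0.95), Enc1 (0.95) and Ly6e (0.94), and Shisa6 by Pde1a (0.93), Pls3 (0.92) and Sstr2 (0.92). For Shisa7 the nearest were Scrn1 (0.88), Ankfy1 (0.87) and Spen (0.86), and for Shisa9 they were Insm1 (0.85), Thrb (0.84) and Mef2d (0.83). The low members had looser neighbours, with Hic2 (0.67), Ermard (0.63) and Prr22 (0.59) for Shisa2 and Zdhhc1 (0.65), Zfpl1 (0.64) and Rcc2 (0.63) for Shisa8.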

How the data were processed

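Poly-A RNA of RiboTag IPs and inputs of mouse NAc was sequenced from KAPA stranded libraries on a NextSeq500. The deposited counts are whole reads per gene, made by the authors from reads trimmed with cutadapt, checked with FastQC and aligned to mm10 with STAR. Per the labels HTSeq counted the IPs and inputs, while the counter of the Sirt1-KO reads and tool versions are not given in the sources used here. The labels also name DESeq2 and, for the main table, HOMER. The 4 D1-IP Con libraries stand in both tables with identical counts. Columns of the main count table numbering 2 matched no sample description and were not used. Entries that name no gene held 18.02 to 28.27% of reads in IPs, 35.89 to 39.99% in inputs and 19.18 to 23.79% in Sirt1-KO libraries, and stayed out of all totals.

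From the counts, edgeR 4.0.16 quasi-likelihood tests (R 4.3.3, TMM factors, genes kept by filterByExpr at 10 reads and at least 15 in total, prior count 2) were fitted over all genes, with Benjamini-Hochberg adjustment. Calls took an adjusted p under 0.05, except for stress contrasts (unadjusted p under 0.05). DESeq2 1.42.0 was an alternative, beside other scalings, filters, subsets of groups, single omissions and a replicate block. The test was tried on simulated data. CPM used the TMM factors, and lengths are exon unions of GENCODE vM21. All 8 members are named, with Sirt1, Drd1 and Drd2 as checks, up to 4 called genes of greatest change per list and comparison, and the 3 genes nearest to each member by Pearson's r. The list of cortical markers is used without an entry that is not reported here. Members and lists were chosen with earlier results of these data known. Replicates are separate pools of 2 mice. Over 76 pairs of replicates the chi-square per gene was 3.512 to 98.71, so none was a repeat. Depth limits the precision most for Shisa3. Its SE comes from the edgeR fit, which takes in the spread between libraries.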

Additional observations from a re-analysis of the deposited data

Results flagged for a closer look

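A single library lay far from the others of its group in 6 of 56 pairs of member and group, by a test that chance passes in about 1 of 20. Shisa3 was at 3.91 CPM in D2-IP Con 2 (others 0 to 0.1097) and at 0.3996 CPM in D1-IP Res 1 (others 0.0696 to 0.0927). Shisa4 was at 34.999 CPM in D1-IP Sus 3 (others 19.6 to 23.9). Shisa5 was at 30.7 CPM in D1-IP Res 3 (others 26.8 to 27.3) and at 19.2 CPM in D2-IP Con 2 (others 21.27 to 21.97). Shisa9 was at 142 CPM in D1-IP Res 1 (others 168 to 172).

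The Sus against Res contrast differed between D1 and D2 by an interaction term at an unadjusted p under 0.05 for Shisa6 (0.60) and Shisa2 (-0.55), and both had an edgeR adjusted p of 1.0 after rounding. The IP to input ratio differed between D1 and D2 for Shisa4 (1.06), Shisa5 (0.51), Shisa6 (0.59) and Shisa7 (-0.19), all on the log2 scale. That of Shisa7 no longer passed without D2-input Con 1.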

How the results depend on the processing

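Shisa4 in Sirt1-KO changed sign, from 0.55 to -0.12, with the cortical sum as a covariate, a fit that called 34 of 13626 genes against 226. Against input, within Con alone, members that did not pass changed sign too: Shisa6 in D1 from -0.03 to 0.14 and Shisa3 in D2 from -1.13 to 0.59. Of 7 members for D1-IP against D2-IP, 5 passed, against 3 with control libraries only and 1 with a fold over 1.5 as well (7.66% of all genes). The count was 4 without D1-IP Con 2 and Sus 3 and 2 with the cortical sum as a covariate. That covariate also lowered the calls over all 14224 genes, from 5805 to 2693. For IP against input, 5 of 8 passed in each line, against 3 in D1 and 2 in D2 with the fold limit. For the enrichment 4 passed, against 2 with controls only, 2 with the fold limit and 3 without the libraries that stood apart. For D1-IP Sus against Con the 1 call became 0 when only the groups compared were fitted, with the fold limit or with adjusted p, and the exact permutation test called Shisa3 (exact p = 0.0397) in place of Shisa6. For D1-IP Sus against Res it became 0 with the fold limit or adjusted p and 2 with the exact permutation test. For D1-IP Res against Con the count rose from 0 to 1 without D1-IP Con 2 and Sus 3. With all genes kept, D2-IP Sus against Con and Res against Con went from 0 to 1 each, and so did the stress by subtype difference for Res against Con, which was 2 without D1-IP Con 2 and Sus 3. That difference for Sus against Res went from 2 to 1 with the fold limit. Input Sus against Con and Res against Con had 1 call each, 0 with the fold limit and 2 with the covariate, and Res against Con had 2 without the libraries that stood apart. Over all 15063 genes the covariate fits called 772 and 661, against 679 and 490 without it. For Sirt1-KO the count was 0, against 1 with all genes, 2 with DESeq2, 3 with the replicate block on fewer libraries and 1 with the exact permutation test. Where no share of all genes stands beside a count, its change cannot be read as particular to the Shisa genes. The covariate and the omission of named sets of libraries were chosen after seeing the data, and the cause of these shifts was not tested.

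Leaving out 1 library at a time gave 5 to 6 members for D1-IP against D2-IP, 4 to 6 for IP against input in each line, 3 to 5 for the enrichment, 0 to 3 for D1-IP Sus against Con, 0 to 1 for Res against Con and 1 to 2 for Sus against Res, 0 to 1 for each D2-IP stress contrast, 0 to 1, 0 to 2 and 1 to 2 for the stress by subtype differences (Sus against Con, Res against Con, Sus against Res), 1 to 2, 1 to 3 and 0 to 1 for inputs in the same order, 0 to 0 between input lines and 0 to 2 for Sirt1-KO. Not every pair of same-numbered libraries deviated together (correlation over 0.1 in 3 of 18 IP and input pairs, 7 of 13 D1 and D2 pairs, 10 of 27 pairs of stress groups, 13 of 45 pairs of inputs and 0 of 3 Sirt1-KO and Con pairs), and nothing in the labels pairs them, so they were treated as unpaired. Entries that name no gene held 18.02 to 19.75% of reads in IPs numbered 3 and 23.79 to 28.27% in those numbered 5. The replicate block gave 6 members for D2-IP against input and 3 for Sirt1-KO, where it called 1629 genes against 226, and left the other counts of members as they were. For IP against input it kept only IPs with a same-numbered input. For Sirt1-KO it kept replicates 1, 3 and 4 of each group, without D1-IP Con 2 and Sirt1-KO 5. Block and choice of libraries thus cannot be told apart, and leaving out Sirt1-KO 5 alone also changed the count of members.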
